A study of Mus musculus with 2 samples.

Results

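The potassium channel genes were described in cultured mouse oligodendrocyte lineage cells with a conditional knockout of Seh1l (Seh1cKO) and in wild-type control cells. Members were the genes whose symbol begins with Kcn, followed by family letters and a digit. That rule found 91 of the 18651 genes listed in either library, 90 of them in the Seh1cKO library and 84 in the control library. Of these genes, 72 encode pore subunits, 15 encode auxiliary subunits and 4 are antisense or overlapping transcripts. Both groups were C57BL/6 cultures of forebrain tissue (cortex, per the growth protocol) at postnatal days 4 to 7, with 1 library each. The labels call the genotypes mutant and wild type and name neither the Cre line nor the part of Seh1l that was removed. Precursors of both genotypes were passed over plates coated with GalC and then O4 antibodies, and were grown with PDGF-AA, CNTF, bFGF and NT3. In both, differentiation was driven for 2 days by triiodothyronine (T3, 60 nM) after PDGF-AA, bFGF and NT3 had been taken away. No replicate was available, so each difference is one between 2 libraries and the genotype could not be tested.

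Potassium channels let potassium leave or enter cells along its gradient and so set the membrane potential. Voltage-gated (Kv) channels open on depolarisation, inward rectifiers (Kir) conduct best near rest, two-pore channels carry leak currents, and calcium-activated channels couple calcium signals to the membrane. Oligodendrocyte precursors carry delayed rectifier and A-type Kv currents that decline as the cells mature, while Kir4.1, encoded by Kcnj10, is the main potassium conductance of mature oligodendrocytes and of astrocytes. Kv1 channels have also been linked to precursor proliferation in rodents. Auxiliary subunits do not form the pore, and change the surface number, gating or calcium sensitivity of the channels they bind.

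Depth differed little, at 20599590 rounded reads in Seh1cKO and 20730114 in control. Seh1l itself was at 18.5 CPM (a gene's reads per 1000000 in that library) in Seh1cKO and 32.1 CPM in control. Of the lineage factors, Olig1 and Olig2 were at 873 and 648 CPM in Seh1cKO, against 864 and 496 CPM in control, while Sox10 and Nkx2-2 were at 207 and 58.9 CPM in Seh1cKO, against 426 and 124.5 CPM in control. The median log2 ratio of those 4 genes was -0.51. Precursor markers went both ways, with 3 of 8 higher in Seh1cKO and 5 lower, 2 of them at least 2-fold lower. Their sums were 1587 CPM in Seh1cKO and 1706 CPM in control. All 12 measured markers of premyelinating and myelinating cells were at least 2-fold lower in Seh1cKO, with a summed level of 1055 CPM against 4962 CPM in control. Both libraries also held astrocyte markers, summed at 7921 CPM in Seh1cKO and 12173 CPM in control, and 9 of 11 of them were lower in Seh1cKO. Much of the gap between those sums came from Gfap, at 2214 CPM in Seh1cKO and 5200 CPM in control. The median log2 ratio of the 11 markers was -0.23. Of 12 fibroblast and mural markers 11 were higher in Seh1cKO, with sums of 772 CPM and 309.7 CPM in control. Those sums include Cspg4, also on the precursor list, at 148 CPM in Seh1cKO and 98.8 CPM in control. Of 8 epithelial markers 7 were higher, with sums of 220.1 CPM in Seh1cKO and 11.8 CPM in control. Among neuron markers 9 of 12 were higher, with sums of 542 CPM in Seh1cKO and 486 CPM in control. The endothelial and microglial lists were low, at 57.8 and 19.1 CPM in Seh1cKO against 27.3 and 9.07 CPM in control. Xist stood at 341 CPM in Seh1cKO and 0.868 CPM in control, and the Y-linked Eif2s3y had 1 and 1705 reads. With 1 library per group, genotype and a difference of sex therefore cannot be told apart for any gene, autosomal genes included. Which cells carried the channel reads was not tested, and in bulk RNA fewer cells of a type and less RNA per cell cannot be told apart.

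Averaged over the pair of libraries, 51 of the 91 genes reached 1 CPM, and these are called measured. The log2 ratio of a gene is that of CPM + 1, Seh1cKO over control, an addition that shrinks differences between low levels. Kcnc1 and Kcnj2 were at least 2-fold higher in Seh1cKO on this scale, and Kcnj12 at least 2-fold lower. The 2 higher genes are 3.92% of the measured members, beside 2.86% of all 13758 measured genes, and the 1 lower gene is 1.96%, beside 1.29%. Both shares are near those of all genes. Median log2 ratios were 0.18 for the measured members and 0.07 for all measured genes. Of the members 32 were above 0 and 19 below, beside 8372 above and 5386 below among all measured genes, a similar balance. The exact 95% counting interval of the CPM ratio lay above 1 for 21 members (41.2%, beside 35.5% of all measured genes) and under 1 for 12 (23.5%, beside 20.0%). Reads carried no molecular identifiers, and these intervals speak to counting error alone. Of the 51 genes, 3 (Kcnk3, Kcnk13 and Kcnd3os) were under 1 CPM in control and were measured only through their Seh1cKO level. The other 40 genes were under the floor of 1 CPM, 30 above 0 and 10 below, beside 65.3% above and 34.4% below among all 4893 genes under it. The interval lay above 1 for 6 of those 40 (15.0%, beside 7.38%) and under 1 for 0 (beside 2.23%). Most measured potassium channel genes therefore stood within 2-fold, with the families differing in how their members were spread.

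**Figure D1:**
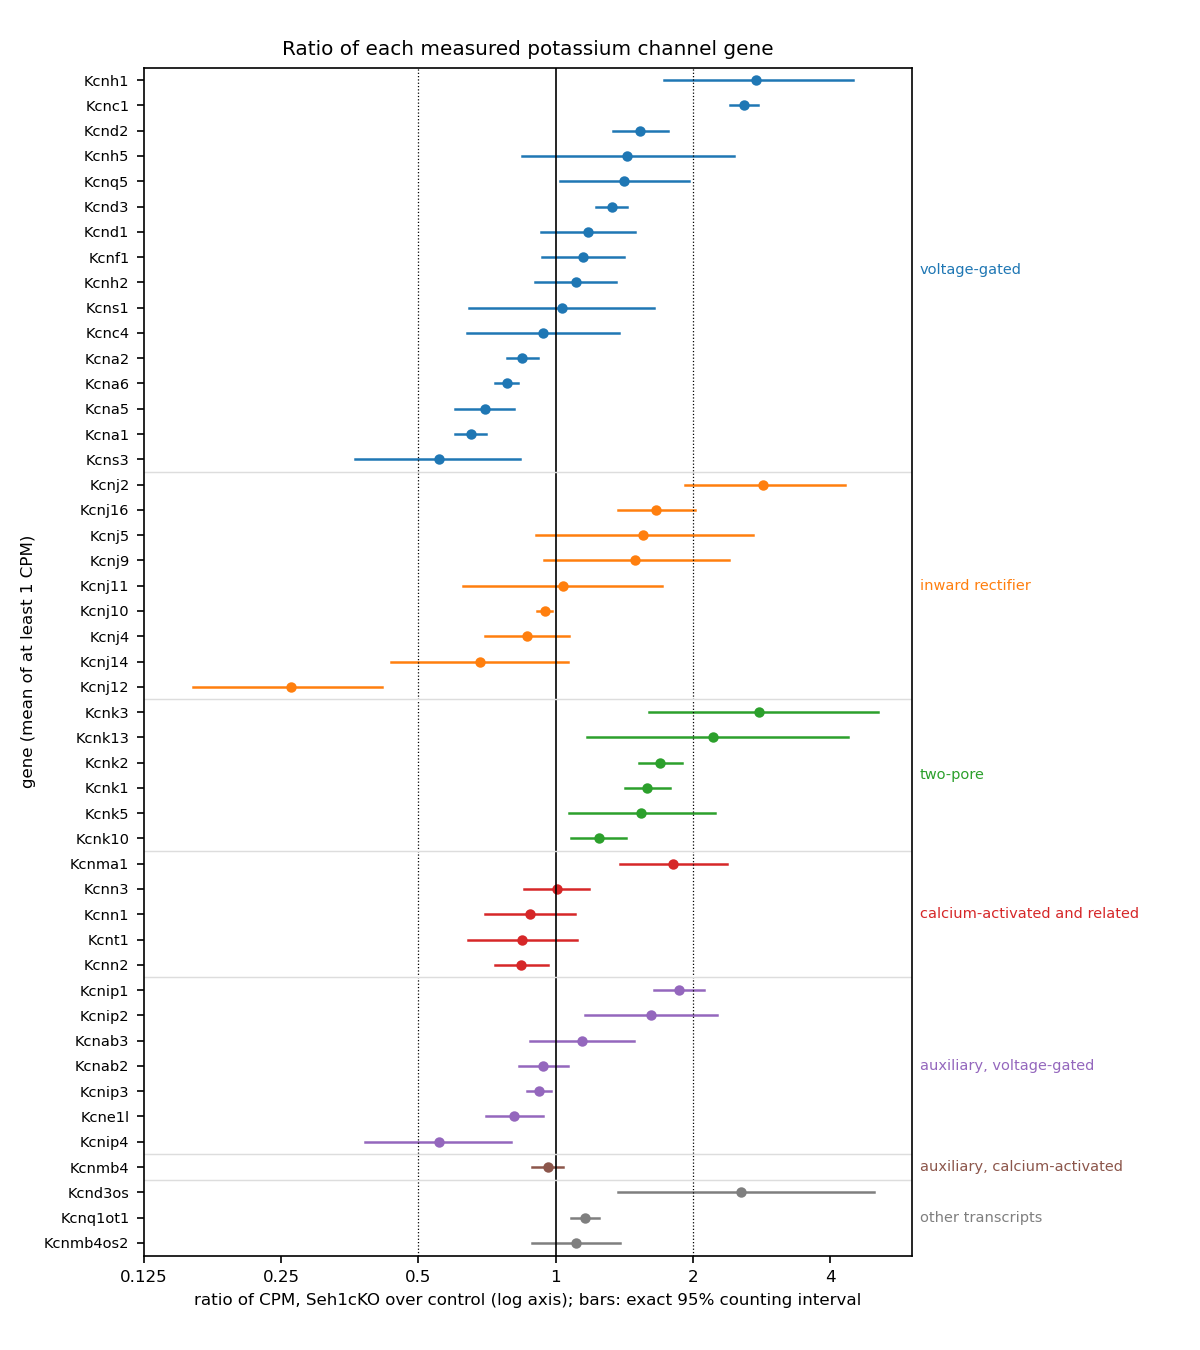
Ratio of CPM, Seh1cKO over control, for 47 of the 51 measured potassium channel genes, grouped by family on a log axis. Points are ratios, bars are exact 95% counting intervals from 1 library per group, the solid line marks equality and the dotted lines mark 2-fold. Kcnj2 (2.85), Kcnk3 (2.80), Kcnh1 (2.75), Kcnc1 (2.59), Kcnd3os (2.55) and Kcnk13 (2.21) lie past the upper dotted line. Kcnj12 (0.263) lies past the lower one. Of these, only Kcnc1, Kcnj2 and Kcnj12 were past 2-fold once 1 CPM was added to each level. The Kv1 genes Kcna1, Kcna2, Kcna5 and Kcna6 lie under 1, and the 6 two-pore genes lie above 1. Of the latter, Kcnk3 and Kcnk13 were measured only through their Seh1cKO level.

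Kcnc1 encodes Kv3.1, a fast, high-threshold delayed rectifier known from fast-spiking neurons. It had 2693 reads (131 CPM) in Seh1cKO and 1046 reads (50.5 CPM) in control. Seh1cKO was thus 2.59-fold higher (2.41 to 2.79), the 181st largest log2 ratio of the 13758 measured genes. The gene lies on chromosome 7, from 46396219 to 46438706 (GRCm38). Its relative Kcnc4, encoding the inactivating channel Kv3.4, was at 2.67 CPM in Seh1cKO and 2.85 CPM in control with an interval that spans equality. The 12 markers of neurons, in which Kcnc1 is abundant, had a median log2 ratio of 0.70. CPM ratios of Nefl (4.13), Nefm (2.75), Syt1 (2.19) and Stmn2 (2.05) were past 2-fold higher, that of Syt1 only before 1 CPM was added. The summed ratio of the 12 markers was 1.12, with Map2 (0.967) and Tubb3 (0.875) the most abundant. The part of neurons in the Kcnc1 level was not tested.

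The Kv1 genes, encoding Shaker-type channels, were lower as a group. Kcna6 (Kv1.6) led them at 104 CPM in Seh1cKO and 133 CPM in control, 1.28-fold lower (1.21 to 1.36). Kcna1 (Kv1.1), which also serves at the juxtaparanodes of myelinated axons, was at 49.3 and 75.7 CPM, 1.54-fold lower (1.42 to 1.66). Kcna5 (Kv1.5), linked to precursor proliferation, was at 14.6 CPM in Seh1cKO and 20.8 CPM in control, 1.43-fold lower (1.23 to 1.66). Kcna2 (Kv1.2) was at 60.1 and 71.1 CPM, 1.18-fold lower (1.10 to 1.28). All 4 measured Kv1 genes were thus within 2-fold and lower, where 5386 of all 13758 measured genes were below 0 on the log2 scale. The reads of all 8 listed Kv1 genes summed to 229.7 CPM in Seh1cKO and 301.4 CPM in control, a ratio of 0.762 (0.734 to 0.792). Their proportions were close, with Kcna6 at 45.3% of Kv1 reads in Seh1cKO (43.9 to 46.7, exact binomial interval) and 44.2% in control (43.0 to 45.4). Kcna3 (Kv1.3), another Kv1 gene linked to proliferation, had 6 reads in Seh1cKO and 0 in control, where 0 reads allow up to 0.145 CPM. Of 50-base windows in the Kcna6 transcript, 39.9% also occur on the opposite strand, mainly in the antisense gene Gm26673, whose reads cannot be told apart without strand.

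Kv4 genes leaned the other way. Kv4 channels carry A-type currents that inactivate quickly. Kcnd3 (Kv4.3) was at 70.6 CPM in Seh1cKO and 53.2 CPM in control, 1.33-fold higher (1.23 to 1.44), and Kcnd2 (Kv4.2) was at 25.1 and 16.4 CPM, 1.53-fold higher (1.33 to 1.76). Kcnd1, on the X chromosome, was at 7.62 and 6.46 CPM with an interval that spans equality. Together the Kv4 reads stood at 103.4 CPM in Seh1cKO and 76.1 CPM in control. Kv7 channels carry M-type currents near the resting potential. Kcnq5, a member of that family, had 94 reads in Seh1cKO and 67 in control, 1.41-fold higher (1.02 to 1.96).

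Among the EAG and ERG genes, Kcnh1 was just under the 2-fold limit. Kcnh1 encodes EAG1, a slowly activating channel, and had 71 reads (3.45 CPM) in Seh1cKO and 26 reads (1.25 CPM) in control. Its ratio of 2.75 (1.73 to 4.49) became a log2 ratio of 0.98 once 1 CPM was added. Kcnh2, encoding ERG1, was at 9.71 and 8.78 CPM and its interval spans equality. Of the modifier subunits, which form no channel on their own, Kcnf1 was at 9.85 CPM in Seh1cKO and 8.59 CPM in control with an interval that spans equality. Kcns3, by contrast, had 38 reads in Seh1cKO and 69 in control, a ratio of 0.554 (0.363 to 0.835). In sum, 20 of the 39 listed voltage-gated pore genes were measured, with Kcnc1 alone past 2-fold and a median log2 ratio of 0.19. Kcns1 and Kcnh5 had at most 40 reads in a library, and their intervals span equality.

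The inward rectifiers held a large and nearly equal gene beside 2 small genes on opposite sides. Kcnj10 (Kir4.1; chromosome 1, 172341210 to 172374085) had 5409 reads (263 CPM) in Seh1cKO and 5753 reads (278 CPM) in control. That is 1.06-fold lower (1.02 to 1.10), or -0.08 on the log2 scale. The 11 measured astrocyte markers had log2 ratios from -1.96 to 0.49 with a median of -0.23, so Kcnj10 lay within their range, and their part in its level was not tested. Kcnj16 encodes Kir5.1, which joins Kir4.1 in heteromeric channels, and was at 13.5 CPM in Seh1cKO and 8.15 CPM in control, 1.66-fold higher (1.37 to 2.02). Per length, Kcnj10 exceeded Kcnj16 by 13.1-fold in Seh1cKO and 23.0-fold in control on the FPKM scale (fragments per kilobase of transcript and per 1000000 reads).

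Kcnj2 and Kcnj12 encode Kir2.1 and Kir2.2, strong rectifiers that can assemble together. Kcnj2 (chromosome 11, 111066164 to 111076825) had 99 reads (4.81 CPM) in Seh1cKO and 35 reads (1.69 CPM) in control, 2.85-fold higher (1.92 to 4.31). Kcnj12 (chromosome 11, 61022564 to 61073269) had 24 reads (1.17 CPM) in Seh1cKO and 92 reads (4.44 CPM) in control, 3.81-fold lower (2.41 to 6.24). With 5 CPM added in place of 1 CPM, the log2 ratios were 0.55 for Kcnj2 and -0.61 for Kcnj12, so neither passed 2-fold. The 4 Kir2 genes had 326 reads in Seh1cKO and 374 in control, a ratio of 0.877 (0.754 to 1.02). As a description of the same reads, Kcnj2 held 30.4% of them in Seh1cKO and 9.36% in control, and Kcnj12 held 7.36% in Seh1cKO and 24.6% in control. Kcnj4 (Kir2.3), the most abundant Kir2 gene, was at 8.11 and 9.36 CPM with an interval that spans equality, and Kcnj14 (Kir2.4) likewise at 1.75 and 2.56 CPM. Of the 50-base windows of the Kcnj14 transcript, 31.2% also occur in Gm5522, so its value is uncertain.

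The stretch of coding sequence that carries the selectivity filter is shown for 1 gene each of the Kv3, Kv1, inward rectifier and two-pore channels, since it is the feature their pores share. Each run gives 57 bases of the GENCODE M21 transcript, 5′ to 3′ on the coding strand, with the 3 codons of the filter signature in capitals. The signature was found as threonine, any residue, glycine, then tyrosine, phenylalanine or leucine, then glycine.
Kcnc1, chr7:46427955-46428011, plus strand: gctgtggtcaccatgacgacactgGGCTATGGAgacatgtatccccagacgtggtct
Kcna1, chr6:126642204-126642260, minus strand: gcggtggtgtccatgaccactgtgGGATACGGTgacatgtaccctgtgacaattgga
Kcnj2, chr11:111072189-111072245, plus strand: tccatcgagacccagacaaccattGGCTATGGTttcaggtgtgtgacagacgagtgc
Kcnk1 second pore, chr8:126025311-126025367, plus strand: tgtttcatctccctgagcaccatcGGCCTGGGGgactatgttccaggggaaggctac
All 4 runs lie within 1 exon (build GRCm38). In this stretch Kcnc1 and Kcna1 share 37 of 57 bases, and Kcnc1 and Kcnj2 share 27. Kcnj2 and Kcnj12 are paralogs whose reads could be confused. Across their aligned coding sequences Kcnj2 and Kcnj12 are 71.5% identical, with a longest identical run of 17 bases. No window of 50 bases was shared between those transcripts, although the Kcnj12 transcript compared has 2459 bases where the authors' length is 4427.

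The remaining measured inward rectifiers were low. Kcnj9 and Kcnj5 encode subunits of G protein-gated channels and were at 2.38 and 1.80 CPM in Seh1cKO, against 1.59 and 1.16 CPM in control. Kcnj11, encoding the pore of ATP-sensitive channels, was at 1.70 and 1.64 CPM. Intervals of all 3 span equality. Kcnj8, the ATP-sensitive pore of pericytes, had 6 reads in Seh1cKO and 5 in control, too few to separate. Of 15 listed inward rectifier genes 9 were measured, with a median log2 ratio of 0.03.

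The measured two-pore genes were higher in Seh1cKO. Kcnk2 encodes TREK-1, a leak channel opened by stretch and lipids, and was at 43.6 CPM in Seh1cKO and 25.7 CPM in control, 1.70-fold higher (1.52 to 1.89). Kcnk1, encoding TWIK-1, was at 37.8 and 23.8 CPM, 1.59-fold higher (1.42 to 1.78). Kcnk10 (TREK-2) was at 22.3 and 17.9 CPM, 1.24-fold higher (1.08 to 1.43). These 3 made up most of the family, and none passed 2-fold. Kcnk5 (TASK-2) was at 3.79 CPM in Seh1cKO and 2.46 CPM in control, 1.54-fold higher (1.07 to 2.24). Kcnk3 (TASK-1, an acid-sensitive leak channel) had 50 reads in Seh1cKO and 18 in control, a ratio of 2.80 (1.60 to 5.09) that became a log2 ratio of 0.88. Kcnk13 encodes THIK-1, a channel of microglia, and had 33 and 15 reads, a ratio of 2.21 (1.17 to 4.39). Both were under 1 CPM in control. Exons of Kcnk2, Kcnk1 and Kcnk3 overlap an opposite-strand gene by 604, 179 and 229 bases, and those reads cannot be told apart without strand.

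The 6 measured two-pore genes had log2 ratios from 0.30 to 0.88 with a median of 0.62, where 8372 of all 13758 measured genes were above 0. The 4 at 1 CPM or more in each library ranged from 0.30 to 0.74. Kcnk3 and Kcnk13 were measured only through their Seh1cKO level. The other 4 two-pore genes were under the floor and did not share one direction, with Kcnk6 at 16 reads in Seh1cKO and 15 in control, Kcnk12 at 11 and 18, Kcnk7 at 1 and 2, and Kcnk4 at 2 and 0. All 10 genes together stood at 113.1 CPM in Seh1cKO and 73.2 CPM in control, a ratio of 1.54 (1.45 to 1.65). Per length, two-pore genes held 17.0% of the FPKM of all pore subunits in Seh1cKO and 11.8% in control. Kcnk1 and Kcnk5 are also expressed by epithelia. Epithelial markers were summed at 220.1 CPM in Seh1cKO and 11.8 CPM in control, and microglial markers at 19.1 and 9.07 CPM. Fibroblast and mural markers, Cspg4 included, were summed at 772 and 309.7 CPM. The part of such cells in the two-pore levels was not tested.

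Calcium-activated genes were nearly equal except for Kcnma1. Kcnma1 encodes the large-conductance BK channel and was at 7.77 CPM in Seh1cKO and 4.29 CPM in control, 1.81-fold higher (1.39 to 2.37). Among the small-conductance SK genes, Kcnn2 was at 19.7 and 23.4 CPM, 1.19-fold lower (1.04 to 1.36). Kcnn3 stood at 14.4 and 14.3 CPM and Kcnn1 at 7.14 and 8.10 CPM, and both intervals span equality. The sodium-activated relative Kcnt1 was at 4.85 CPM in Seh1cKO and 5.74 CPM in control, also with an interval that spans equality. Of 8 listed genes 5 were measured, all within 2-fold, with a median log2 ratio of -0.16. Kcnn4, the intermediate-conductance channel of epithelia and blood cells, had 19 reads in Seh1cKO and 11 in control, too few to separate. Exons of Kcnma1 overlap those of the opposite-strand gene 4930519K11Rik by 1016 bases. Those of Kcnn2 overlap the opposite-strand genes A330093E20Rik and AC121957.1 by 284 and 323 bases. Of the 50-base windows of Kcnn2, 14.2% also occur on the opposite strand, so its small difference is uncertain without strand. Kcnma1 is also a smooth muscle channel. The smooth muscle markers Acta2 and Tagln had ratios of 1.76 and 1.68, while the intervals of Des (1.27) and Vtn (0.899) in the same list span equality. That list also holds fibroblast genes and the precursor marker Cspg4, and its median log2 ratio was 1.24. The part of such cells in the Kcnma1 level was not tested.

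Kcnmb4, the β4 subunit of BK channels, had the highest FPKM of all potassium channel genes in both libraries. It was at 61.4 FPKM in Seh1cKO and 64.0 FPKM in control, or 62.3 and 64.9 CPM, a ratio of 0.961 (0.889 to 1.04). By the same scale Kcnma1, whose pore it joins, was at 1.29 FPKM in Seh1cKO and 0.72 FPKM in control. Exons of Kcnmb4 overlap those of the opposite-strand genes Kcnmb4os1 and Kcnmb4os2, and 72.2% of its 50-base windows also occur in opposite-strand genes, mainly Kcnmb4os2. The level of Kcnmb4 is therefore uncertain without strand. The muscle subunit Kcnmb1 had 19 and 10 reads, and Kcnmb2 had 0 reads in Seh1cKO and 1 in control.

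Auxiliary subunits of voltage-gated channels went both ways. KChIPs are calcium-binding proteins that escort Kv4 channels to the surface, and all 4 KChIP genes were measured. Kcnip3, also known as the transcriptional repressor DREAM, was at 99.5 CPM in Seh1cKO and 108.2 CPM in control, 1.09-fold lower (1.02 to 1.15). Kcnip1 was at 34.9 and 18.7 CPM, 1.86-fold higher (1.65 to 2.12), and Kcnip2 at 4.76 and 2.94 CPM, 1.62-fold higher (1.16 to 2.26). Kcnip4 had 48 reads in Seh1cKO and 87 in control, 1.80-fold lower (1.25 to 2.62). The mixture therefore differed more than its total, which was 141.5 CPM in Seh1cKO and 134.0 CPM in control. Kcnip1 supplied 24.7% of KChIP reads in Seh1cKO (23.1 to 26.3) and 14.0% in control (12.7 to 15.3).

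The Kvβ genes, whose products bind Kv1 channels, did not share the lower level of the Kv1 genes. Kcnab2 was at 24.2 CPM in Seh1cKO and 25.8 CPM in control, and Kcnab3 at 6.12 and 5.35 CPM, both with intervals that span equality. Kcnab1 had 21 reads in Seh1cKO and 5 in control, under the floor of 1 CPM. Kcne1l, an X-linked member of the single-span Kcne subunits, was at 16.8 and 20.7 CPM, 1.23-fold lower (1.07 to 1.42). The other Kcne genes had 20 reads or fewer in either library. Of 12 listed auxiliary genes of voltage-gated channels 7 were measured, none past 2-fold, with a median log2 ratio of -0.09.

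**Figure D2:**
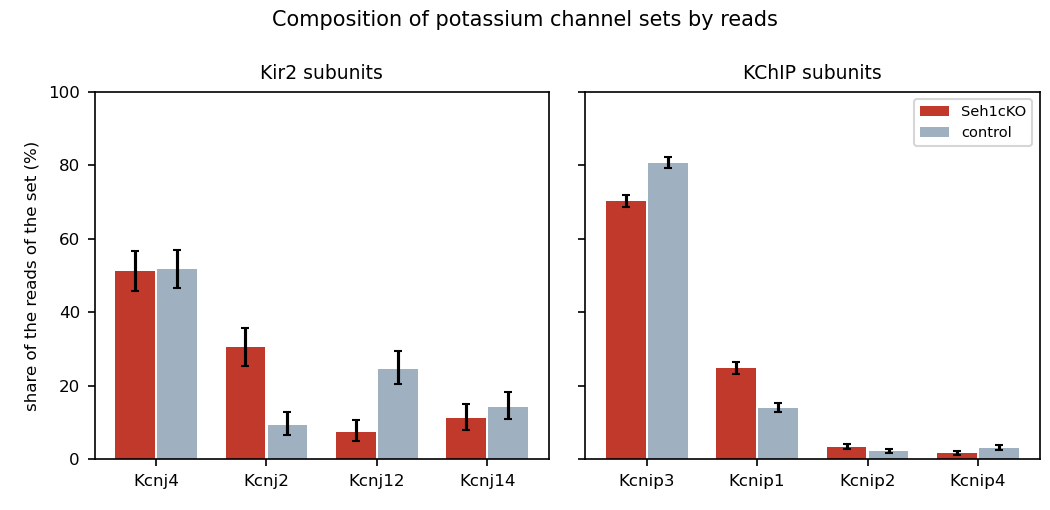
Share of reads (%) that each gene holds within 2 sets, with Seh1cKO bars left of control bars and exact 95% binomial intervals for counting error. Kcnj2 holds 30.4% of Kir2 reads in Seh1cKO and 9.36% in control, and Kcnip1 holds 24.7% of KChIP reads in Seh1cKO and 14.0% in control.

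Levels between genes were compared per length, on the deposited FPKM scale. Kcnmb4, Kcnj10 and Kcnip3 had the 3 highest values in both libraries, at 61.4, 48.0 and 35.5 FPKM in Seh1cKO and 64.0, 50.7 and 38.7 FPKM in control. Kcna6 came next in both, at 17.6 FPKM in Seh1cKO and 22.5 FPKM in control. Kcnc1 ranked 5 in Seh1cKO, at 17.2 FPKM, and 14 in control, at 6.79 FPKM. Genes at 10 FPKM or more numbered 9 in Seh1cKO and 7 in control. Among pore subunits, Kcnj10 alone made up 23.2% of summed FPKM in Seh1cKO and 26.96% in control. Voltage-gated genes made up 47.2% and 47.0%, inward rectifiers 28.7% and 32.5%, and calcium-activated and related genes 7.10% and 8.75%. The order of families was therefore the same, with voltage-gated genes first in each library.

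**Figure D3:**
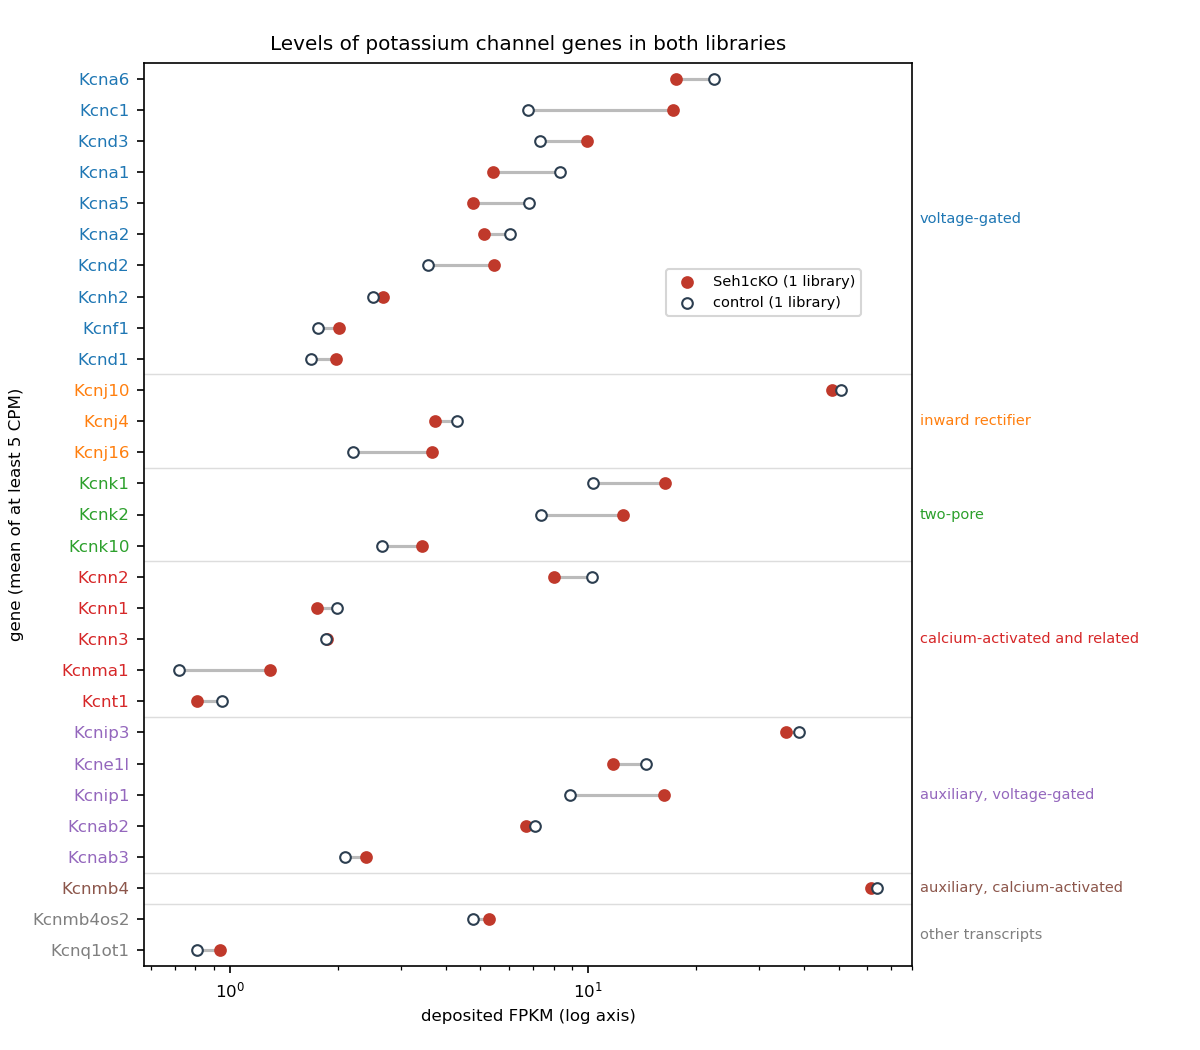
Deposited FPKM (log axis) of 29 of the 33 potassium channel genes at a mean of at least 5 CPM, grouped by family, with 1 filled point for the Seh1cKO library and 1 open point for the control library. Kcnmb4, Kcnj10 and Kcnip3 stand highest in both, and Kcnc1 shows the widest gap among the voltage-gated genes drawn, at 17.2 FPKM in Seh1cKO and 6.79 FPKM in control.

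Transcripts that share a channel symbol but encode no subunit were all on the higher side. Kcnq1ot1, the imprinted antisense RNA of the Kcnq1 domain, was at 80.1 CPM in Seh1cKO and 68.9 CPM in control, 1.16-fold higher (1.08 to 1.25). Kcnq1 itself had 9 and 3 reads. Kcnmb4os2 was at 8.50 and 7.67 CPM with an interval that spans equality. Kcnd3os, which overlaps Kcnd3 on the opposite strand, had 38 reads in Seh1cKO and 15 in control, a ratio of 2.55 (1.37 to 4.99). Of its 50-base windows, 11.2% occur on the opposite strand, mainly in Kcnd3.

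Genes that work with potassium channels but lie outside the symbol rule were taken from 4 lists. Of 17 measured channel partners only Lgi3 passed 2-fold, on the lower side. Lgi3 is a secreted protein that associates with axonal Kv1 complexes, and was at 18.9 CPM in Seh1cKO and 62.2 CPM in control, a ratio of 0.303 (0.270 to 0.340). Adam11, another protein of Kv1 complexes, had 14.7 CPM in Seh1cKO and 28.1 CPM in control (ratio 0.521, interval 0.452 to 0.600). Cntn2, a juxtaparanodal adhesion protein, had 7.09 CPM in Seh1cKO and 3.62 CPM in control (ratio 1.96, interval 1.47 to 2.62). The list median was -0.01, so these genes did not lie on one side.

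Sodium-potassium pump subunits, which maintain the gradient that the channels use, were within 2-fold, with Atp1b2 highest by FPKM at 748 in Seh1cKO and 964 in control. The FXYD regulators were more spread. Fxyd1 was at 16.8 CPM in Seh1cKO and 37.5 CPM in control, a ratio of 0.449 (0.394 to 0.510), and Fxyd7 at 2.09 and 3.86 CPM, a ratio of 0.541 (0.364 to 0.793). Fxyd5, expressed by epithelia among other cells, had 57 reads in Seh1cKO and 9 in control, a ratio of 6.37 (3.13 to 14.6). Epithelial markers were summed at 220.1 CPM in Seh1cKO and 11.8 CPM in control, and the part of any cell type in the Fxyd5 level was not tested. Of 11 measured genes, Fxyd5 passed 2-fold upward and Fxyd1 downward, with a median of -0.10. All 12 measured cotransporters and kinases were within 2-fold, with a median of 0.04. Slc12a9 (0.739), Wnk1 (1.28) and Wnk2 (0.786) had the largest log2 ratios of that list in size. Among hyperpolarisation-activated channels, Hcn2 was at 18.98 CPM in Seh1cKO and 28.1 CPM in control (0.675-fold), Hcn3 at 4.37 and 3.81 CPM, and Hcn4 had 35 and 11 reads.

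**Figure D4:**
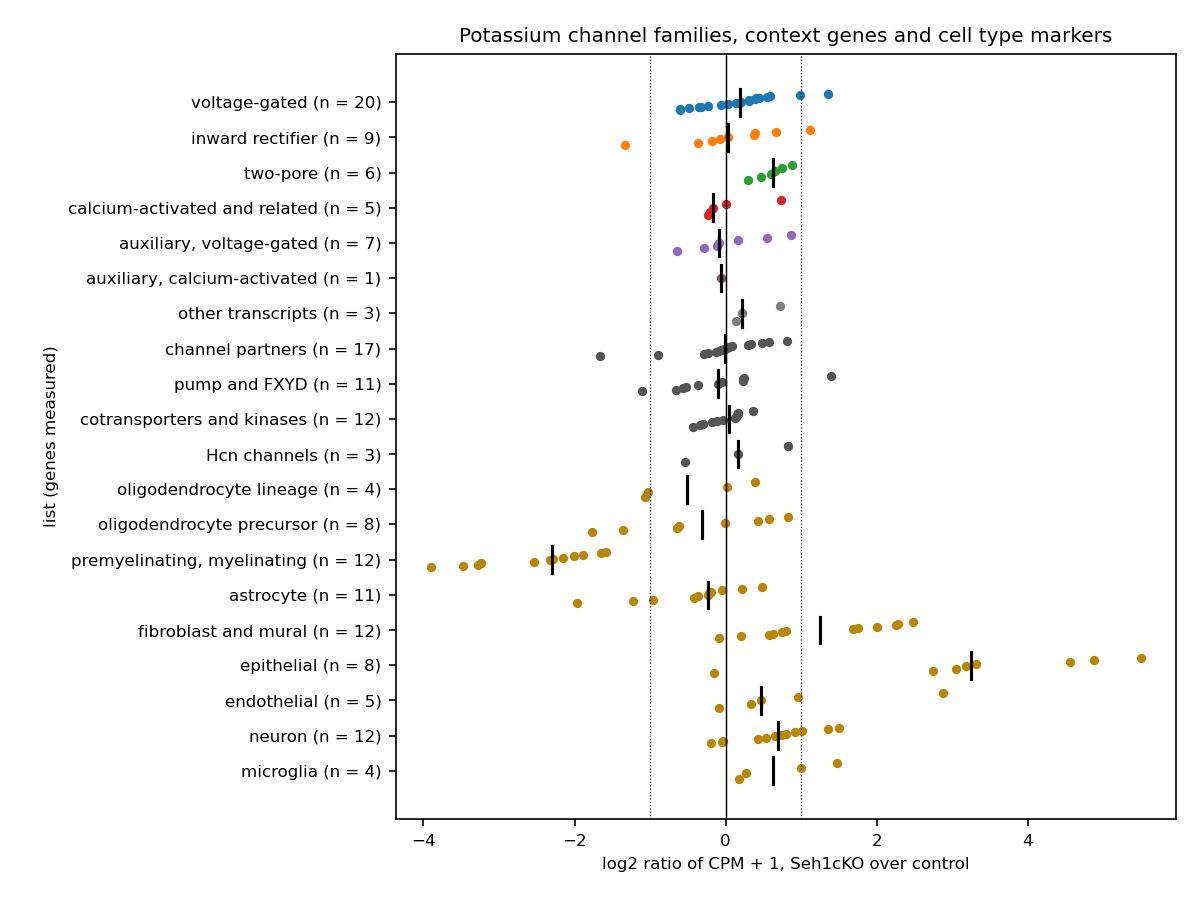
Log2 ratio of CPM + 1, Seh1cKO over control, for each measured gene (points) and the list median (black bars) in the potassium channel families, the context lists and the cell type marker lists. Dotted lines mark 2-fold. Channel families lie between -1.33 and 1.36, while premyelinating and myelinating markers lie below -1 and 7 of 8 epithelial markers above 1.

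The authors' deposited table held 5 of the 91 potassium channel genes, beside 896 genes in all where 18651 were listed in either library. Among listed genes the share of the members was thus near that of all genes. Among measured genes the table held 5 of 51 members, beside 809 of 13758 genes, a higher share for the members that rests on 5 genes. In that table the log2 fold change, Seh1cKO over control, was 1.54 for Kcnj2, 1.52 for Kcnk3, 1.47 for Kcnh1, 1.34 for Kcnc1 and -1.94 for Kcnj12. Kcnk3 and Kcnh1 pass 2-fold there and not here, where 1 CPM was added to each level. Their exact intervals lie above 1 in the ratios without that addition.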

How the data were processed

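Total RNA was sequenced from 1 Seh1cKO and 1 control culture. Per the file headers, the deposited tables give each gene's expected count and FPKM. HTSeq, StringTie and mm10 appear in the submitters' processing notes, with no role. No label names the aligner or whether counting used strand. A deposited comparison table gives a log2 fold change beside a p-value for each gene, from 1 library per group, and no p-value is reported here.

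Each expected count was rounded and divided by its library total (20599590 in Seh1cKO and 20730114 in control). Genes not listed in a library were set to 0 reads, which allow up to 3. Ratios carry exact 95% Clopper-Pearson intervals from the 2 counts, and the code was tested on simulated data. The log2 ratio used a pseudocount of 1 CPM, a floor of a mean of 1 CPM and a 2-fold limit. Potassium channel genes, families, 4 context lists and 9 marker lists were chosen with earlier results of these data known. Named genes were members at a mean of at least 5 CPM, past 2-fold, among the 2 highest by FPKM of a family or in the authors' table, and 3 genes of each context list. Kcna3, Kcns1, Kcns3, Kcnh5, Kcnc4, Kcnq5, Kcnip2, Kcnip4, Kcnk5, Kcnk13, Kcnj5, Kcnj9, Kcnj11, Kcnj14 and the members under 1 CPM were named beyond that rule, after their values were seen. All 91 genes matched RefSeq of GRCm38.p6 by identifier. For 90 genes, 1 GENCODE M21 transcript was cut into 50-base windows and sought in all other genes. Values of some genes and some sequences are not reported here. Python 3.11.15, pandas 2.3.3, NumPy 2.4.6, SciPy 1.17.1 and Matplotlib 3.10.9 were used.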

Additional observations from a re-analysis of the deposited data

How the results depend on the processing

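The count of 2 genes at least 2-fold higher became 6 with a pseudocount of 0.1 CPM, where Kcnh1, Kcnk3, Kcnk13 and Kcnd3os joined Kcnc1 and Kcnj2, and it became 1 with a pseudocount of 5 CPM, on the deposited FPKM scale or with a floor of 5 CPM. The count of 1 lower gene became 0 with the pseudocount of 5 CPM, with FPKM and with the floor of 5 CPM. Kcnj2 and Kcnj12 each had at most 99 reads in a library, while Kcnc1 was past 2-fold in every setting run. With libraries rescaled by upper quartile or by median of ratios, and without a floor, the counts were 2 and 1. They were the same without genes on chromosomes X and Y, and with channel subunits alone. The last 2 settings were chosen after seeing the data. Leaving out X and Y genes does not remove a difference of sex from the other genes. The median log2 ratio of the members ranged from 0.11 to 0.20 over all settings. Of 38 named genes 1, Kcnn3, changed sign, at -0.06 by median of ratios and -0.04 by upper quartile. Of 332 single-gene values from other settings, 6 lay outside the gene's counting interval. Kcnj10 was among them, at -0.16 by median of ratios beside -0.08 in the main setting. Differences as small as that of Kcnj10 therefore depend on how the libraries were scaled. No paired analysis was possible because each group holds 1 library. Depth limits the low genes: Kcnj9, with 49 reads in Seh1cKO and 33 in control, had a ratio of 1.49 whose interval spans equality.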

Other observations

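Several potassium channel genes lie side by side, and neighbours did not always stand on the same side. Kcna5, Kcna1 and Kcna6 share a stretch of chromosome 6 and had log2 ratios of -0.49, -0.61 and -0.35. Kcnj16 and Kcnj2 are 38.2 kb apart on chromosome 11, with log2 ratios of 0.67 and 1.11. Kcnj9 and Kcnj10, 11.9 kb apart on chromosome 1, had log2 ratios of 0.38 and -0.08. Within these pairs the genes differ in level, and no test of shared behaviour was possible with 1 library per group.

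Another 40 genes of the set were under a mean of 1 CPM, with at most 23 reads in Seh1cKO and 24 in control. The counting interval lay above 1 for 6 of them (15.0%, beside 7.38% of all 4893 genes under that level). Those 6 were Kcna4 (23 reads in Seh1cKO and 8 in control), Kcnab1 (21 and 5), Kcnh3 (18 and 4), Kcng1 (11 and 1), Kcna3 (6 and 0) and Kcne3 (6 and 0). Kcna4 was the only Kv1 gene with more than 10 reads in a library that was higher in Seh1cKO. Neuron markers had a median log2 ratio of 0.70 and a summed ratio of 1.12, with 3 of 12 at least 2-fold higher on the CPM + 1 scale. The part of neurons in these counts was not tested.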
